A study of Mus musculus with 14 samples.

Results

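The MYC, MAX and MXD network is a small family of DNA-binding proteins whose messenger RNAs were followed here in 14 libraries of mouse bone marrow cells. Its 10 genes, Myc, Mycn, Mycl, Max, Mxd1, Mxd3, Mxd4, Mxi1, Mnt and Mga, were taken by symbol from count tables of 55367 gene symbols. All 10 were present in both tables. MYC, MYCN and MYCL bind DNA as dimers with MAX at a short element called the E-box, and they raise genes of ribosome building, nucleotide synthesis and metabolism. MXD1, MXD3, MXD4, MXI1, MNT and MGA take the same partner and the same element but recruit repressors, the MXD proteins and MNT through SIN3 and MGA through a polycomb complex. In blood formation MYC is known for dividing progenitors and MXD1 for maturing myeloid cells.

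The cells were lineage-negative (Lin-) bone marrow cells, the progenitor-rich fraction left after mature blood cells are removed, from mice labelled wild-type. They were grown with SCF, IL6 and IL3, cytokines of early blood cells, in IMDM with 15% FBS. The cells of the first experiment carried a lentiviral pSMAL vector with either luciferase (LUC, 3 libraries) or SETBP1-D868N, a leukaemia-associated mutant of a nuclear protein (3 libraries). In the second experiment all cells carried SETBP1-D868N, and they received DMSO, the solvent (4 libraries), or PF-9363, an inhibitor of the MYST family of histone acetyltransferases, at 2.5 µM for 4 days (4 libraries). The series title puts the question as whether MYST acetyltransferases can be targeted in SETBP1-mutant leukaemia. The labels give no age and do not say whether replicates came from separate animals or cultures, so p-values measure only the spread between these libraries, which may be technical. The vector drives SETBP1-D868N in whichever cells it entered, and in bulk RNA fewer cells of a type and less RNA per cell cannot be told apart.

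Of the 9 members with an entry in the RefSeq promoter set used here, 3 had the E-box CACGTG within 250 bases before to 50 bases after an annotated start. The motif reads the same on both strands. Over all 32851 such windows of 300 bases in GRCm38.p6, 7.15% held it, and 3 of the 11 windows of the members did. Those stretches are shown because CACGTG is the element that the dimers of this network bind. They are written 5′ to 3′ on the strand of the gene, with the motif in capitals, and a match is a description of the sequence only.

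Mxd4, minus strand, chr5:34187904-34187960: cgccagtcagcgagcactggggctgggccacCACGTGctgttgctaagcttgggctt
Mnt, plus strand, chr11:74830741-74830826: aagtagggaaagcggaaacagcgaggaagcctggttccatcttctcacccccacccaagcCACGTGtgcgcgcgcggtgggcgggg
Max, minus strand, chr12:76962226-76962311: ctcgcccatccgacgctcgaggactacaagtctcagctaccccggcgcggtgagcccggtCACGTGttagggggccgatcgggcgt

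The first base of the motif lay 219 bases before the RefSeq start in Mxd4, 123 bases before it in Mnt and 3 bases before it in Max. In Max the motif runs across the RefSeq start. The GENCODE start of Max, at 76962201 on the minus strand, lies downstream of the whole stretch shown. The windows of Mycn, Mycl, Mxd1, Mxd3, Mxi1 and Mga did not hold these letters.

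Library totals spanned 60147266 to 68730322 counts with LUC and SETBP1-D868N, and 7083731 to 10359093 counts with DMSO and PF-9363. A count of 0 therefore allows up to 0.0447 to 0.0505 CPM, the scaling of counts to the library total, in the former libraries and 0.272 to 0.467 CPM in the latter, covering counting error only. CPM values are scaled by TMM, a method that evens out library composition, within each experiment. Reads on Setbp1, the mouse gene, numbered 5 to 6 per LUC library and 20 to 24 per SETBP1-D868N library (log2 fold change 1.91, SE 0.35, adjusted p 6.60e-04 by edgeR's quasi-likelihood test). Whether reads from the vector's SETBP1 are counted on the mouse gene is not stated, so these few reads do not settle the labels. In the second experiment Setbp1 held 0 to 2 counts per library and checks no label there. The lymphoid markers Cd3e, Cd3g and Ebf1 had 0 counts in every library of the second experiment, as had the stromal gene Col1a2. Neutrophil markers (Elane, Mpo, Ltf, S100a8, S100a9 and Ly6g) summed to between 12242 and 18399 CPM in every library of the first experiment, against 309 to 367 CPM for the stem and progenitor markers Kit, Cd34, Flt3, Ly6a and Cd48. Genes annotated as antisense RNAs took 0.0951 to 0.103% of the counts with LUC and SETBP1-D868N but 1.41 to 1.61% with DMSO and PF-9363, and the strand setting of the counting is not given in the sources used here.

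Within a group, levels of different genes were compared as CPM per kilobase of merged exons. In LUC cells Myc stood highest, at 63.6 ± 1.42 CPM per kb (SD, n = 3), followed by Mxd1 at 44.6 ± 3.55 and Max at 37.1 ± 1.10. Mxi1, Mnt and Mxd4 lay together between 14.5 and 16.8 CPM per kb in single libraries, with overlapping values between neighbours in that order. Mxd3 followed at 6.63 ± 0.469, then Mga at 4.44 ± 0.855 and Mycn at 4.09 ± 0.274, which overlapped, and Mycl was lowest at 0.300 ± 0.0569. In SETBP1-D868N cells of the same experiment Max was next after Myc and Mxd1 followed, at 37.1 ± 0.205 and 27.1 ± 2.16 CPM per kb, and their libraries did not overlap. With the longest annotated transcript as the length, Max (68.7 CPM per kb) and Mxd1 (67.7) traded places in LUC cells, as did Mycn (5.03) and Mga (4.89). Mxd4, Mxi1 and Mnt then lay apart in LUC cells, at 27.4, 21.8 and 15.8 CPM per kb, so the order of these genes depends on the length used.

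DMSO cells of the second experiment had Myc highest again, at 65.4 ± 2.25 CPM per kb (SD, n = 4), then Mxd1 at 44.4 ± 6.92, Max at 28.2 ± 2.17 and Mxi1 at 24.0 ± 1.62, the last pair overlapping. After PF-9363 Mxd1 was highest at 41.8 ± 2.82 CPM per kb, Max came after it at 29.0 ± 2.71, then Mnt at 19.8 ± 0.602 and Mxi1 at 17.5 ± 0.358. Myc came next at 11.1 ± 1.07 CPM per kb, and it overlapped with Mga, its neighbour in the order. With the longest transcript as length the order after Max was Mxi1 (23.7 CPM per kb), Mnt (20.0), Mxd4 (17.1) and then Myc (13.0), so the places below Max depend on the length used, while Mxd1 and Max stayed above Myc. Mycn and Mycl were the lowest members in every group of the second experiment, Mycn at 0.523 ± 0.365 CPM per kb in DMSO and Mycl at 0. The plot of members by library shows the same genes in CPM.

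**Figure D1:**
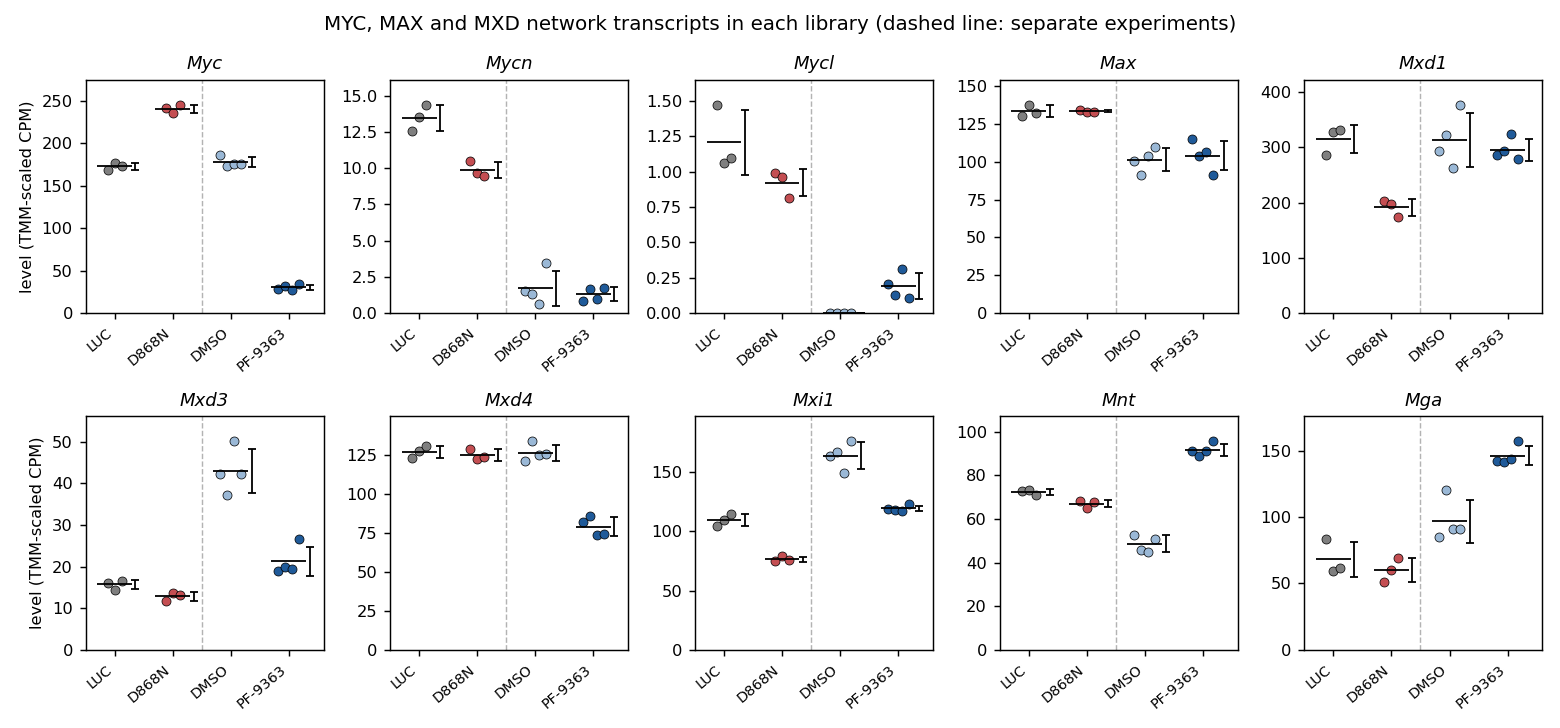
Level of each of the 10 network members in TMM-scaled CPM (vertical axes from 0) in every library, by group: LUC and SETBP1-D868N with 3 libraries each, DMSO and PF-9363 with 4 each. Points are libraries, horizontal lines are means, bars are 1 SD, and the dashed line parts the 2 experiments; Myc lies at 236 to 245 CPM in SETBP1-D868N libraries and at 27.4 to 33.7 CPM in PF-9363 libraries.

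The first comparison, SETBP1-D868N against LUC, asks how the mutant alters the network. Myc rose 1.39-fold with SETBP1-D868N while 3 of the 4 MXD-type genes, Mxd1, Mxd3 and Mxi1, fell, Mxd1 most at 1.65-fold. Mycn and Mnt fell as well, and Max, the shared partner, differed by a log2 value near 0. In all, 6 of the 10 members were called, 1 higher and 5 lower, against 47.2% of the 15794 genes tested (24.5% higher, 22.7% lower), where a call is an adjusted p under 0.05 in edgeR's quasi-likelihood test with Benjamini-Hochberg adjustment. The members' median log2 fold change was -0.24, beside 0.0043 over all genes tested. Groups did not overlap for 7 of the 10 members, against 56.7% of all genes tested.

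Among the MYC-type genes, Myc (chromosome 15, 61985391 to 61990374, GRCm38) measured 169, 176 and 174 CPM in LUC and 242, 236 and 245 CPM in SETBP1-D868N. Every SETBP1-D868N library lay above every LUC library, and the means were 173 ± 3.85 and 241 ± 4.68 CPM (SD, n = 3 each). The log2 fold change was 0.48 (SE 0.028, adjusted p 1.03e-07, edgeR). Mycn (chromosome 12, 12936093 to 12941914), the form known best from neural and embryonic tissue, measured 12.5, 13.5 and 14.3 CPM in LUC and 10.5, 9.65 and 9.48 CPM in SETBP1-D868N. It fell by 0.45 on the log2 scale (SE 0.066, adjusted p 1.37e-04, edgeR), opposite to Myc and without overlap between groups. Mycl (chromosome 4, 122995652 to 123002485), the third form, held 99, 69 and 65 counts in LUC and 65, 63 and 54 in SETBP1-D868N. On the CPM scale its groups did not overlap, and the log2 fold change of -0.39 (SE 0.18) did not pass the test (adjusted p 0.0968, edgeR). Of the summed per-kilobase level of the trio, Myc made up 93.6% in LUC and 96.5% in SETBP1-D868N.

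Max (chromosome 12, 76937269 to 76962201), the obligate partner, stood at 130, 138 and 132 CPM in LUC and 134, 133 and 133 CPM in SETBP1-D868N. The SETBP1-D868N values lay inside the LUC range, and the log2 fold change was -8.6e-05 (SE 0.029, adjusted p 0.998, edgeR).

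Mxd1 (chromosome 6, 86647042 to 86669161), which replaces MYC on MAX as myeloid cells mature, measured 287, 328 and 332 CPM in LUC and 203, 198 and 174 CPM in SETBP1-D868N. The groups lay well apart, and Mxd1 fell by 0.72 on the log2 scale (SE 0.086, adjusted p 0.00159, edgeR). Mxi1 (chromosome 19, 53310518 to 53375810), also called MXD2, measured 104, 110 and 115 CPM in LUC and 75.0, 79.0 and 75.6 CPM in SETBP1-D868N. No library overlapped, and the log2 fold change was -0.52 (SE 0.038, adjusted p 5.59e-07, edgeR). Mxd3 (chromosome 13, 55325168 to 55329823), the MXD protein found in dividing cells, measured 16.0, 14.5 and 16.6 CPM in LUC and 11.6, 13.7 and 13.2 CPM in SETBP1-D868N. Its groups were parted by a narrow gap, and it fell by 0.29 on the log2 scale (SE 0.072, adjusted p 0.00555, edgeR). Mxd4 (chromosome 5, 34173883 to 34187720), the fourth of the kind, measured 123, 127 and 130 CPM in LUC and 129, 122 and 123 CPM in SETBP1-D868N. Those values overlapped, and the log2 fold change of -0.024 (SE 0.032) was not called.

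Mnt (chromosome 11, 74830920 to 74845725), a repressor present in most cells, measured 72.8, 73.4 and 70.8 CPM in LUC and 68.2, 65.0 and 67.8 CPM in SETBP1-D868N. The groups did not overlap, but the difference was small, with a log2 fold change of -0.11 (SE 0.031, adjusted p 0.0119, edgeR). That call was lost when libraries were scaled by their total alone (adjusted p 0.130) and when the second LUC library was left out (adjusted p 0.0595). Mga (chromosome 2, 119897228 to 119969581), the largest protein of the network and the anchor of the polycomb complex PRC1.6, measured 83.2, 59.4 and 61.8 CPM in LUC and 50.8, 60.1 and 69.4 CPM in SETBP1-D868N. Its libraries overlapped and scattered widely, and the log2 fold change of -0.18 (SE 0.20) did not pass the test (adjusted p 0.513, edgeR). Without the first LUC library it was -0.011. Mga has a longest transcript of 13931 bases, and the 733 tested genes with transcripts of at least 8 kb moved with the same libraries. Their median log2 deviation from the mean was 0.18 in the first LUC library and -0.17 in the first SETBP1-D868N library, and the part of transcript length in the values of Mga was not tested.

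**Figure D2:**
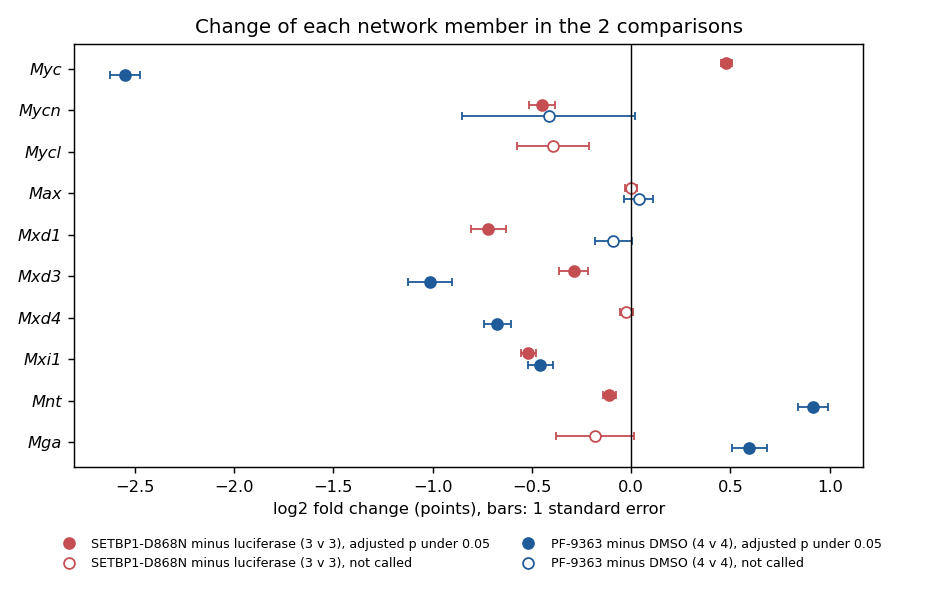
Log2 fold change of each network member (horizontal axis) with SETBP1-D868N against LUC (red, 3 against 3 libraries) and with PF-9363 against DMSO (blue, 4 against 4). Bars are 1 standard error and filled points passed an adjusted p under 0.05; Myc sits at 0.48 in red and -2.55 in blue, and Mycl has no blue point because it was not tested there.

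The second comparison, PF-9363 against DMSO in cells that all carried SETBP1-D868N, asks what the inhibitor does to the network. Myc fell 5.85-fold, and Mxd3, Mxd4 and Mxi1 fell too, Mxd3 most at 2.02-fold. Mnt rose 1.89-fold and Mga 1.51-fold, while Max, Mxd1 and Mycn were not called. In all, 6 of the 9 members tested were called, 2 higher and 4 lower, against 76.0% of the 13456 genes tested (36.6% higher, 39.4% lower), so the share called, 66.7%, was near the background. The median log2 fold change of the tested members was -0.42, beside -0.038 over all genes tested. Groups did not overlap for 6 of the 9, against 70.3% of all genes tested.

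Myc measured 187, 173, 176 and 175 CPM in DMSO and 28.4, 31.6, 27.4 and 33.7 CPM in PF-9363. The groups were far apart and tight within, with means of 178 ± 6.12 and 30.3 ± 2.91 CPM (SD, n = 4 each). The log2 fold change was -2.55 (SE 0.075, adjusted p 4.90e-22, edgeR). Mycn was near the limit of detection, with 15, 13, 7 and 38 counts in DMSO and 8, 13, 6 and 16 in PF-9363. Those groups overlapped, and its log2 fold change of -0.42 (SE 0.44) was not called (adjusted p 0.392, edgeR) and turned to 0.18 without the fourth DMSO library. Mycl stood at 0 counts throughout DMSO and at 2, 1, 2 and 1 in PF-9363, too few for a comparison. The noncoding neighbour of Myc, Pvt1 (chromosome 15, 62037986 to 62378096), was low in both experiments and not called, at 1.90 ± 0.412 CPM in DMSO and 2.28 ± 0.781 CPM in PF-9363 (log2 fold change 0.22, SE 0.32, adjusted p 0.530, edgeR). With SETBP1-D868N it was 3.23 ± 0.321 CPM against 3.06 ± 0.196 CPM in LUC (adjusted p 0.602, edgeR).

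Max measured 101, 91.2, 104 and 110 CPM in DMSO and 115, 104, 107 and 91.3 CPM in PF-9363. Its groups overlapped over most of their range, and the log2 fold change was 0.037 (SE 0.074, adjusted p 0.660, edgeR). Mxd1 measured 294, 323, 262 and 377 CPM in DMSO and 286, 294, 324 and 279 CPM in PF-9363, so the treated libraries lay inside the spread of the DMSO libraries. Its log2 fold change was -0.089 (SE 0.092, adjusted p 0.387, edgeR). Both depend on the scaling: by library total alone, which lowered the median of all genes by 0.23 on the log2 scale, Max stood at -0.19 (adjusted p 0.0243) and Mxd1 at -0.32 (adjusted p 0.00295). Without the third DMSO library Mxd1 was called lower too, at -0.17 (adjusted p 0.0438), and without the fourth it was 0.0041.

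Mxd3 measured 42.3, 37.3, 50.1 and 42.4 CPM in DMSO and 19.0, 20.0, 19.5 and 26.6 CPM in PF-9363. All treated libraries were lower, the fourth less so, and the log2 fold change was -1.01 (SE 0.11, adjusted p 5.55e-09, edgeR). Mxd4 measured 121, 134, 125 and 125 CPM in DMSO and 82.2, 86.0, 73.3 and 74.3 CPM in PF-9363. It fell by 0.68 on the log2 scale (SE 0.069, adjusted p 6.23e-10, edgeR), with no overlap. Mxi1 measured 164, 167, 149 and 176 CPM in DMSO and 119, 118, 118 and 123 CPM in PF-9363. The treated libraries agreed within a narrow range below all DMSO libraries, and the log2 fold change was -0.46 (SE 0.063, adjusted p 2.03e-07, edgeR).

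Each member of that trio shares exon sequence with a gene on the opposite strand, and the counts of a gene and its partner cannot be told apart where the counting ignores strand. Mxd4 shares 514 bases with the antisense gene Gm42846, which held 0 counts in all libraries of the first experiment and 215 to 249 per DMSO library in the second, where it fell by 0.65 on the log2 scale with PF-9363 (adjusted p 8.21e-05, edgeR). Mxi1 shares 194 bases with Gm10197, which held 0 to 3 counts in each LUC or SETBP1-D868N library but 394 to 571 in each DMSO library, and which fell by 0.56 (adjusted p 1.04e-05, edgeR). Mxd3 shares 105 bases with Prelid1, a mitochondrial lipid-transfer gene, which fell by 0.86 with PF-9363 (adjusted p 5.40e-14, edgeR) and by 0.19 with SETBP1-D868N (adjusted p 1.09e-04, edgeR). These 3 members' values in the second experiment are uncertain to that extent.

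Mnt measured 52.9, 45.9, 44.9 and 50.8 CPM in DMSO and 91.1, 88.9, 91.1 and 95.6 CPM in PF-9363. Every treated library was above every DMSO library, and the log2 fold change was 0.92 (SE 0.074, adjusted p 4.24e-12, edgeR). Mga measured 84.9, 121, 91.2 and 90.9 CPM in DMSO and 143, 142, 144 and 157 CPM in PF-9363. It rose without overlap by a log2 fold change of 0.59 (SE 0.088, adjusted p 3.71e-06, edgeR). The second DMSO library, the highest of its group for Mga, was also the highest for long transcripts, with a median log2 deviation of 0.0045 against -0.23 to -0.15 in the other DMSO libraries and 0.14 to 0.16 in the PF-9363 libraries. The 647 genes with transcripts of at least 8 kb had 0.32 as their median log2 fold change, 341 being called higher and 205 lower, and the part of transcript length in the rise of Mga was not tested.

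Set side by side, the comparisons gave Myc a log2 fold change of 0.48 with SETBP1-D868N and -2.55 with PF-9363, and Mnt one of -0.11 and 0.92. Mxd3 and Mxi1 were called lower in both, at -0.29 and -1.01 for Mxd3 and at -0.52 and -0.46 for Mxi1. Of the 12376 genes tested in both experiments, 18.1% rose in the first comparison and fell in the second, as Myc did, and 16.8% did the reverse, as Mnt did.

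Ratios within a library do not depend on the scaling and are given as a description, without a test. The summed per-kilobase level of Myc, Mycn and Mycl divided by that of Mxd1, Mxd3, Mxd4, Mxi1, Mnt and Mga was 0.665 ± 0.0131 in LUC (SD, n = 3) and 1.20 ± 0.0437 in SETBP1-D868N. In the second experiment it was 0.559 ± 0.0437 in DMSO (SD, n = 4) and 0.108 ± 0.0109 in PF-9363, and groups overlapped in neither experiment. With the longest transcript as length this ratio became 0.542 in LUC, 0.977 in SETBP1-D868N, 0.454 in DMSO and 0.0919 in PF-9363. Whether its mean passed 1 in SETBP1-D868N therefore depends on the length used. The denominator on its own is a level and does depend on the scaling. By TMM it was 102 ± 3.72 CPM per kb in LUC and 76.9 ± 1.61 in SETBP1-D868N, and 118 ± 7.84 in DMSO and 107 ± 2.10 in PF-9363. By library total alone it was 101 ± 4.15 and 78.2 ± 1.77, and 128 ± 7.71 and 98.7 ± 0.709 CPM per kb. Mxd1 alone made up 43.6 ± 1.99% of that sum in LUC and 35.3 ± 2.11% in SETBP1-D868N. Myc over Max was 1.72 ± 0.0212 in LUC, 2.39 ± 0.0447 in SETBP1-D868N, 2.33 ± 0.185 in DMSO and 0.390 ± 0.0737 in PF-9363. With the longest transcript as length the last ratios became 1.08, 1.50, 1.46 and 0.244, in the same order of groups within each experiment.

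**Figure D3:**
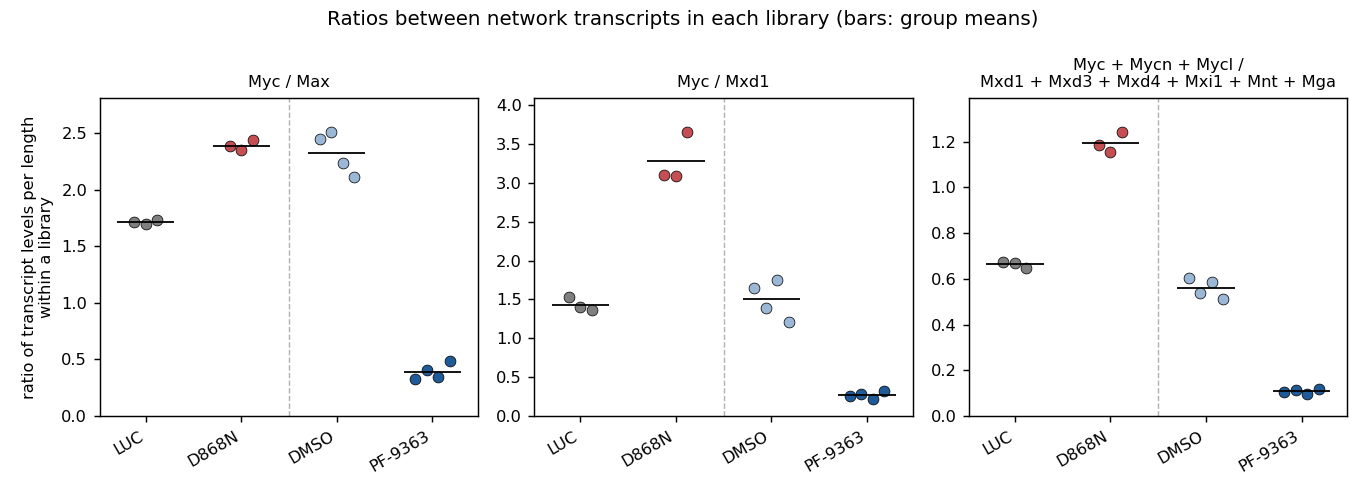
Ratios of levels per kilobase of merged exons within each library (vertical axes from 0) for Myc over Max, Myc over Mxd1, and the 3 MYC-type over the 6 repressive members. Points are libraries, horizontal lines are group means and the dashed line parts the experiments; the third ratio lies at 1.16 to 1.24 in SETBP1-D868N libraries and at 0.0958 to 0.120 in PF-9363 libraries.

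The lists of related genes below were chosen with earlier results of these data known. Genes that MYC is known to raise mostly followed the direction of Myc. Of 26 such genes, 23 were called higher and 2 lower with SETBP1-D868N, against 24.5% and 22.7% of all genes tested. Their median log2 fold change was 0.35. The serine-to-glycine enzyme Shmt2 went from 252 ± 3.66 to 358 ± 10.3 CPM (SD, n = 3 each; log2 fold change 0.51), the spermidine synthase Srm from 136 ± 1.65 to 192 ± 2.20 CPM (0.49) and the RNA polymerase I subunit Polr1b from 44.1 ± 1.04 to 60.3 ± 2.65 CPM (0.45). Lactate dehydrogenase Ldha (-0.25) and cyclin D2, Ccnd2 (-0.11), were the 2 called lower. Those 2 calls were both lost without the second LUC library, and 1 was left without the third LUC library or without the first or second SETBP1-D868N library.

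With PF-9363, 20 of the 26 were called lower and 3 higher, against 39.4% and 36.6% of all genes tested. The median log2 fold change was -0.48. Ldha dropped from 2110 ± 82.0 to 477 ± 12.9 CPM (SD, n = 4 each; log2 fold change -2.15), the pyrimidine-synthesis enzyme Cad from 50.3 ± 2.63 to 20.4 ± 3.40 CPM (-1.31) and Polr1b from 29.8 ± 5.01 to 12.4 ± 3.47 CPM (-1.24). The genes called higher were Ccnd2, from 90.7 ± 11.7 to 331 ± 48.2 CPM (1.87), the nucleoside diphosphate kinase Nme1 (0.65) and the mitochondrial chaperonin Hspe1 (0.46). Ldha and Hspe1 have annotated processed pseudogenes, so reads may be split between copies. In number, 18 of the 26 rose in the first comparison and fell in the second, or 69.2%, against 18.1% of all genes tested in both. These 18 were among the 23 called higher in the first comparison and the 20 called lower in the second.

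Of 8 genes that MYC is known to lower, 5 were called lower and 2 higher with SETBP1-D868N. Over all genes tested 22.7% were called lower and 24.5% higher, and the list's median log2 fold change was -0.19. The largest falls were in the stress-response gene Ndrg1 (-0.76), the transcription factor Hbp1 (-0.35) and the cell-cycle inhibitor Cdkn2b (-0.27). The myeloid factor Cebpa (0.52) and Ndrg2 (0.38) rose. Leaving out any 1 library gave 3 to 4 called lower, with 3 when the third LUC library or the second SETBP1-D868N library was left out. With PF-9363, 4 were called higher and 2 lower, against 36.6% and 39.4% of all genes tested, with a median of 0.33. With 2 of the 8 not called, the share called was near the 76.0% of all genes tested. The growth-arrest gene Gadd45a went from 46.4 ± 4.89 to 287 ± 11.7 CPM (SD, n = 4 each; log2 fold change 2.63), Cdkn2b from 2.27 ± 0.235 to 12.4 ± 2.36 CPM (2.43) and the p21 gene Cdkn1a from 193 ± 15.5 to 464 ± 59.8 CPM (1.26). Ndrg2 fell by 4.60 on the log2 scale, from 56.6 ± 4.20 to 2.27 ± 0.947 CPM, and Cebpa by 0.52.

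**Figure D4:**
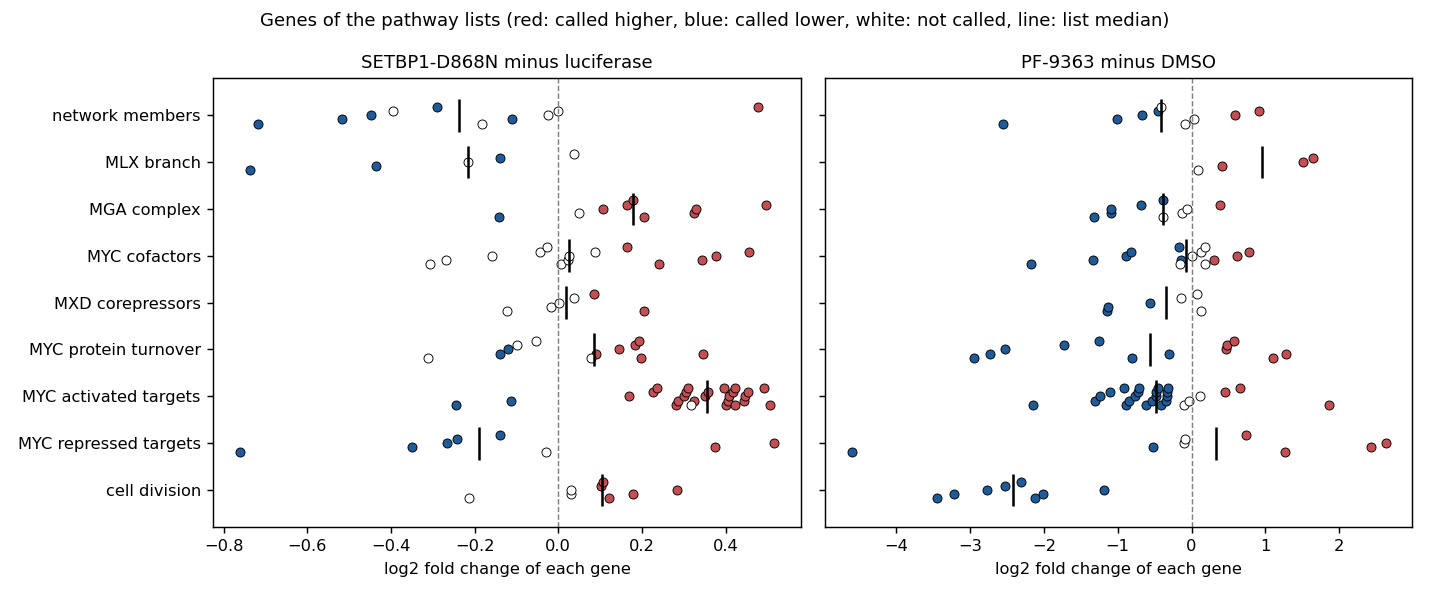
Log2 fold change of each gene (points, horizontal axis, different ranges in the panels) in the network and in lists of related genes (rows), with SETBP1-D868N against LUC on the left and PF-9363 against DMSO on the right. Red and blue points were called higher and lower and vertical lines are list medians; the genes MYC is known to raise have medians of 0.35 and -0.48.

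The MLX branch is a parallel network in which MLX pairs with MLXIP or MLXIPL and responds to glucose, with Txnip and Arrdc4 as its best known targets. With SETBP1-D868N 3 of the 5 genes were called lower, against 22.7% of all genes tested, with a median log2 fold change of -0.22. Arrdc4 went from 36.3 ± 0.623 to 21.8 ± 0.882 CPM (SD, n = 3 each; -0.74), Txnip from 204 ± 5.02 to 151 ± 4.35 CPM (-0.44) and Mlxip from 99.9 ± 4.86 to 90.7 ± 4.68 CPM (-0.14). With PF-9363 the same genes were called higher, 3 of the 4 tested, against 36.6% of all genes tested. Txnip reached 1111 ± 82.6 CPM from 390 ± 44.7 (SD, n = 4 each; log2 fold change 1.51) and Arrdc4 111 ± 15.6 CPM from 35.2 ± 0.777 (1.65), beside 0.41 for Mlxip. Mlxipl was too low to be tested. It averaged 0.853 CPM in DMSO (0.499 to 1.09 CPM in single libraries) and stood at 0 to 0.108 CPM with PF-9363. The DMSO mean was 2.29-fold above a floor of 3 counts per PF-9363 library, which leaves out the spread in DMSO. Mlx itself was not called in either comparison.

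Partners of MGA in PRC1.6, a polycomb complex that silences germline genes, were called in both directions. With SETBP1-D868N, 7 of the 9 were called higher and 1 lower, against 24.5% and 22.7% of all genes tested. Their median log2 fold change was 0.18. Pcgf6, the subunit that defines the complex, rose most (0.50), then the ubiquitin ligase Rnf2 (0.33) and L3mbtl2 (0.32), while Rybp fell by 0.14. After PF-9363, 5 were called lower and 1 higher, against 39.4% and 36.6% of all genes tested, with a median of -0.39. Cbx3, the HP1-gamma gene, went from 136 ± 8.40 to 54.5 ± 4.22 CPM (SD, n = 4 each; -1.32), L3mbtl2 from 42.2 ± 2.52 to 19.8 ± 2.57 CPM (-1.09) and Tfdp1 from 303 ± 9.35 to 143 ± 13.4 CPM (-1.09). Rybp rose by a log2 fold change of 0.38, as Mga did by 0.59. Cbx3 and Rybp have annotated processed pseudogenes.

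Partners of MYC protein on chromatin were split. With SETBP1-D868N, 5 of the 14 were called, all higher, a smaller share than the 47.2% of all genes tested. The median log2 fold change was 0.025. Rises were led by the helicase Ruvbl1 (0.46), the acetyltransferase Kat2a (0.38) and the helicase Ruvbl2 (0.34). With PF-9363, 6 were called lower and 3 higher, with a median of -0.073. The share called was below the 76.0% of all genes tested. Ruvbl2 went from 147 ± 5.97 to 32.5 ± 1.68 CPM (SD, n = 4 each; -2.18), Ruvbl1 from 50.3 ± 3.65 to 20.0 ± 1.54 CPM (-1.33) and Kat2a from 31.4 ± 2.51 to 16.9 ± 2.89 CPM (-0.89). The chromatin reader Bptf (0.78) and the elongation cyclin Ccnt1 (0.31) were among those called higher, and 5 were called higher without the fourth DMSO or the third PF-9363 library. Kat5, the MYST-family acetyltransferase among these partners, had log2 fold changes of 0.0066 with SETBP1-D868N and 0.18 with PF-9363 and was not called (adjusted p 0.891 and 0.0569, edgeR).

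Of the 6 genes of the SIN3 corepressor that MXD proteins and MNT recruit, 2 were called higher with SETBP1-D868N, the histone deacetylases Hdac2 (0.20) and Hdac1 (0.086). No other was called, and that share was below the 47.2% of all genes tested. The median log2 fold change was 0.019, and 1 gene was called without the second or the third LUC library or without the first or second SETBP1-D868N library. With PF-9363, 3 were called lower, with a median of -0.35, beside 39.4% called lower and 76.0% called either way over all genes tested. Those were Sap30, from 32.8 ± 3.28 to 14.8 ± 2.59 CPM (SD, n = 4 each; -1.15), Hdac2, from 88.4 ± 4.42 to 40.2 ± 2.68 CPM (-1.14), and Hdac1 (-0.56). The scaffolds Sin3a and Sin3b were not called in either comparison. Without the second DMSO or the second PF-9363 library, 1 gene was called higher.

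Enzymes that degrade or stabilise MYC protein were split after PF-9363, with 5 of 12 called higher, 7 lower and a median log2 fold change of -0.56. All genes tested had 36.6% called higher and 39.4% lower there. The ubiquitin ligase gene Fbxw7, whose protein marks MYC for destruction, went from 14.3 ± 2.00 to 34.8 ± 5.83 CPM (SD, n = 4 each, log2 fold change 1.28). The kinase gene Gsk3b went from 103 ± 9.90 to 219 ± 6.19 CPM (1.10) and the deubiquitinase Usp36 from 26.3 ± 2.98 to 39.3 ± 2.92 CPM (0.58). The mitotic kinases Plk1 (-2.95) and Aurka (-2.73) and the phosphatase inhibitor Cip2a (-2.52), which are also known from dividing cells, fell most. With SETBP1-D868N, 6 were called higher and 2 lower, against 24.5% and 22.7% of all genes tested, with a median of 0.084. Usp36 (0.35) and Skp2 (0.20) led the rises, and Fbxw7 (-0.14) and Gsk3b (-0.12) fell. Without the second LUC or the first SETBP1-D868N library, 1 was called lower.

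Markers of dividing cells and of other cell types moved in the same comparisons. These lists were chosen with earlier results of these data known, and some markers after their values were seen. Their counts of calls are therefore a description only. Over all genes tested, 36.6% were called higher and 39.4% lower with PF-9363, and 24.5% and 22.7% with SETBP1-D868N. All 8 division genes (Mki67, Top2a, Pcna, Mcm2, Ccnb1, Cdk1, Bub1 and Aurkb) were called lower with PF-9363, with a median log2 fold change of -2.42, and their summed level went from 2133 to 2313 CPM in DMSO libraries to 381 to 658 CPM. With SETBP1-D868N 5 of the 8 were called higher, with a median of 0.10 and sums of 2074 to 2285 and 2118 to 2328 CPM. All 6 macrophage markers (Csf1r, Adgre1, Cd68, Mrc1, C1qa and Mertk) were called higher with PF-9363, from 395 to 489 CPM in sum to 2944 to 3548 CPM, and lower in the first comparison, from 785 to 825 to 482 to 514 CPM. Of 6 mast cell and basophil markers, 5 were called higher with PF-9363, from 860 to 1075 CPM in sum to 3596 to 4494 CPM. Neutrophil markers summed to 14371 to 16778 CPM in DMSO and 13097 to 14696 CPM in PF-9363, with the early granule genes Elane (-9.66) and Mpo (-8.49) called lower and the late genes Ltf (1.11) and Ly6g (1.44) higher. With SETBP1-D868N the same list had 2 genes higher, Elane (0.34) and Mpo (0.40), and 4 lower, led by Ly6g (-0.90). The part of these markers in the changes of Myc, Mxd1, Mnt and the other members was not tested.

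By likeness of pattern over the 14 libraries, measured as the root mean square difference of log2 CPM centred within each experiment over 9333 genes, the gene nearest to Myc was Naf1 at 0.103, followed by Cep131 at 0.104 and Pdcd4 at 0.113. Max had closer neighbours, Ppp4c at 0.0348 and Sin3b at 0.0391. Mnt was nearest to Zdhhc18 (0.0421) and Dync1li2 (0.0429), Mxd4 to Lrmp (0.0446) and Mga to Mrtfb (0.0574) and Usp9x (0.0623). Mxi1 was nearest to Arrb1 (0.0646), and Mxd1 to Rnf144a (0.0776), Cd38 (0.0825), Padi4 (0.0882) and Ndrg1 (0.0999), a gene of the list that MYC is known to lower. Mxd3 had no neighbour under 0.132, the value of Gapdh, and Prelid1, with which it shares exon bases, was the fourth nearest at 0.141. Mycn, the lowest member measured for likeness, was nearest to Gpr157 at 0.256.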

How the data were processed

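Messenger RNA was sequenced from 14 libraries, grouped by their titles. The deposited values are raw counts by gene symbol, in 1 table for each experiment, as the authors made them, with 0 unmapped columns. Per the submitters' processing notes, STAR, DESeq2 and the builds GRCm38 and mm10 were used, with no role or version given. The counting program, annotation and strand setting are not given in the sources used here. From the counts, genes passing filterByExpr in edgeR 4.0.16 (minimum count 10, minimum total 15) in each experiment were scaled by TMM and tested with glmQLFit (robust) and glmQLFTest in R 4.3.3, with Benjamini-Hochberg adjustment over all genes tested. Experiments were not tested against each other. Standard errors are the log2 fold change over the root of F. Lengths, positions and overlaps came from GENCODE M21, promoters from RefSeq. For likeness 0.5 CPM was added before log2 and genes had a mean of at least 5 CPM. All members were named, and from each list the 3 largest called changes per direction, plus Kat5 and Pvt1 (a few list genes are not reported here); other markers and long transcripts were chosen after their values were seen. Members and lists were chosen with earlier results of these data known. Alternatives were RLE or library-size scaling, other filters, DESeq2 1.42.0, limma 3.58.1 voom, no robust estimation, a replicate block and leaving out each library. The test was tested on simulated data.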

Additional observations from a re-analysis of the deposited data

Results flagged for a closer look

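Both results below come from the fourth PF-9363 library, which lay apart from the other 3 libraries of its group for 2 members. Mxd3 measured 26.6 CPM there, against 19.0 to 20.0 CPM in the others, and the gap took up 0.865 of the group's range. Mga measured 157 CPM there, against 142 to 144 CPM, with a gap of 0.843 of the range. Both gaps passed the 95% limit of Dixon's test for 4 libraries, 23 gaps were examined, and chance alone flags about 1 in 20. For both genes the fourth library stayed on the same side of all DMSO libraries.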

How the results depend on the processing

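Calls for Myc, Mxd3 and Mxi1 in both comparisons, for Mycn and Mxd1 with SETBP1-D868N and for Mxd4, Mnt and Mga with PF-9363 held under every alternative run. Leaving out 1 library gave 1 member higher and 4 to 5 lower of 10 with SETBP1-D868N, and 2 higher and 4 to 5 lower of 9 with PF-9363; genes called in all ran from 6436 to 7086 (7448 with all libraries) and from 10013 to 10261 (10228). For the other pathway genes these ranges were 47 to 49 higher and 9 to 12 lower, and 19 to 21 higher and 50 to 53 lower. Scaling by library total alone lowered the count of these genes called lower with SETBP1-D868N from 13 to 6 and moved the share of higher calls over all genes from 51.9% to 62.1%, and from 48.1% to 36.2% with PF-9363. Signs turned for members that were not called. With SETBP1-D868N, Max was 0.049 and Mxd4 0.025 by library total, and Max was 2.7e-04 with no filter, 3.2e-04 with voom and -0.017 to 0.024 when 1 library was left out, the highest without the second LUC library. With PF-9363, Max was -0.19 by library total. With 1 library left out it ran from -0.016 (the second DMSO; -0.012 the first PF-9363) to 0.11, Mxd1 from -0.17 to 0.0041 and Mycn from -0.70 to 0.18, both highest without the fourth DMSO library. Within single lists, library totals changed calls lower with SETBP1-D868N to 0 of the PRC1.6 and turnover lists, 1 gene of the MYC-raised list and 3 of the MYC-lowered list, and with PF-9363 to 8 lower and 0 higher of the PRC1.6 list and 4 lower of the MYC-lowered list; RLE scaling gave 5 MYC partners higher with PF-9363; RLE, DESeq2 and voom each gave 1 corepressor gene higher with PF-9363, and DESeq2 gave 1 with SETBP1-D868N. The cause was not tested. Replicate numbers did not pair libraries (correlations of same-numbered deviations -0.18 to -0.045 and -0.038 to 0.011); with the replicate block 6640 and 10124 genes were called, the members' counts of calls were as before, and Max with SETBP1-D868N was 3.1e-04. Low counts limit Mycn and Mycl in the second experiment, and the part of depth in them was not tested.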

Other observations

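Hbb-bt, a beta-globin gene, rose by a log2 fold change of 1.92 with SETBP1-D868N, and Klf1, the erythroid master factor, by 0.97. In the second experiment Hbb-bt rose by 1.15 with PF-9363, from 2.79 ± 0.515 to 6.26 ± 1.95 CPM (SD, n = 4 each), while Klf1, the other erythroid marker tested there, had a log2 fold change of -0.81 (SE 0.50) and was not called (adjusted p 0.141, edgeR). Stem and progenitor markers summed to 135 to 144 CPM in DMSO libraries and 267 to 311 CPM in PF-9363 libraries. Most of that sum was the receptor gene Kit, which went from 69.8 to 191 CPM (log2 fold change 1.45). Cd48 was called higher as well (0.79) and Flt3 lower (-1.86), while Cd34 and Ly6a were not called. Of the mast cell and basophil markers, 2 were called higher with SETBP1-D868N, Ms4a2 (0.65) and Mcpt8 (0.48), and 4 lower. The shares over all genes tested were 24.5% and 22.7%. The stromal list summed to 17.3 to 17.7 CPM in LUC, 17.8 to 20.7 in SETBP1-D868N, 2.54 to 3.65 in DMSO and 6.23 to 8.24 in PF-9363, and the lymphoid list to at most 1.30 CPM in any library.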
